A study of Mus musculus with 17 samples.

Results

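The Fos and Jun genes encode the subunits of the transcription factor AP-1, and 6 of them, Fos, Fosb, Fosl2, Jun, Junb and Jund, were followed here by name out of 24491 genes listed for each library. They were compared in the hippocampus of offspring of 3 groups of mothers, with their levels in oocytes given beside them. All mice were wild type CD1. Hippocampus came from adult female offspring aged 40 to 44 weeks, about 10 months, born to young mothers (n = 4 libraries), to aged mothers (n = 3) or to aged mothers that had been treated with rapamycin (n = 3). Rapamycin, an inhibitor of the mTOR kinase, was injected into the abdominal cavity at 2 mg/kg for 40 weeks, starting at 8 weeks of age. Ovulated oocytes in metaphase II, about 10 per library, came from untreated mice of 4 weeks (young, n = 2) and 48 weeks (aged, n = 2) and from rapamycin-treated mice of 48 weeks (n = 3). Ovulation was induced with 5 IU of each gonadotrophin at 4 weeks and with 10 IU at 48 weeks, so hormone dose and age cannot be told apart in oocytes. The offspring themselves received no treatment, and the labels name the hippocampus groups by the mother only, without the interval between treatment and mating.

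AP-1 is a dimer of leucine-zipper proteins. Fos proteins as a rule bind DNA together with a Jun protein, whereas Jun proteins can also pair among themselves. In neurons, Fos, Fosb and Junb are immediate early genes: calcium and MAP kinase signals acting on the factors CREB and SRF switch on their transcription within minutes of activity, without new protein synthesis, and their transcripts decay quickly. Jund is transcribed more steadily, Jun is controlled in part by its own protein, and Fosl2 (Fra-2) typically follows the faster Fos genes.

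The genes lie on 5 chromosomes of GRCm38, the assembly also called mm10, in GENCODE release M21. Fos (ENSMUSG00000021250.13) lies at chr12:85473890-85477273 on the plus strand, Fosb (ENSMUSG00000003545.3) at chr7:19302696-19310051 on the minus strand and Fosl2 (ENSMUSG00000029135.10) at chr5:32135801-32157842 on the plus strand, and each has 4 exons in its longest coding transcript. Jun (ENSMUSG00000052684.4) lies at chr4:95049034-95052222 on the minus strand, Junb (ENSMUSG00000052837.6) at chr8:84974484-84978718 on the minus strand and Jund (ENSMUSG00000071076.6) at chr8:70698949-70700616 on the plus strand, and each of these has 1 exon. The antisense genes Junos and Gm11175 share 232 exon bases with Jun and 877 with Jund. Neither antisense gene is listed in the files, and the library kit does not mark strand, so antisense reads would be counted with Jun or Jund. Junb and Prdx2 overlap as genes but share 0 exon bases.

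The promoter sequences below are shown to describe elements of activity-driven transcription in some of the members. Whether these elements have a part in any difference between groups was not tested. They are RefSeq promoters on GRCm38.p6, written 5′ to 3′ on the gene's strand, with capitals for 3 motifs. The first is TGACG, the core of the site bound by CREB. The second, TGACATCA, is a variant of the site of AP-1 and ATF proteins. The third is the TATA box, TATAAA. The stretches of Fos (chr12:85473770-85473889, plus strand), Junb (chr8:84978749-84978868, minus strand) and Jun (chr4:95052223-95052342, minus strand) are the 120 bases before the RefSeq start. That of Fosb (chr7:19310088-19310117, minus strand) is 30 bases around its TGACG.

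Fos: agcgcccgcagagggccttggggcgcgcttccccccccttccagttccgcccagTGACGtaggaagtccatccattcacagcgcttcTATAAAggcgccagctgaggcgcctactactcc
Junb: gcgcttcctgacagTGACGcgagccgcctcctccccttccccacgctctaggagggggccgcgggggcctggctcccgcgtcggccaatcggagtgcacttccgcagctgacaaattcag
Jun: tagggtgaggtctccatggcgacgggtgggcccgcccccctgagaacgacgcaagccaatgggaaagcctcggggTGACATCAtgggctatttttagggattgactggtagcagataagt
Fosb: tggagttgcgggTGACGcaagcgcgggggc

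In the 300-base RefSeq windows, which run from 250 bases before to 50 after the start, TGACG was found on either strand in 3 of 6 members and in 21.0% of 27025 promoters. It stood at -129 and -66 in Fos, at -60 in Fosb and at -106 in Junb, counted from the RefSeq start. TGACATCA was found in Jun alone among the members, at -45, and in 3.76% of all promoters. TATAAA was found in 2 of 6, at -33 in Fos and at 1 in Junb, whose GENCODE start lies 30 bases further downstream, and in 14.2% of all promoters. The full palindromes TGACGTCA (1.88% of promoters) and TGANTCA (7.93%) and the CArG box, the site of SRF (1.57%), were found in 0 of 6. The windows of Fosl2 and Jund are counted among the 6 but are not shown, since their RefSeq starts lie 671 and 1210 bases away from the GENCODE starts. Bases outside the 300-base windows were not searched, so 0 of 6 does not show that a gene lacks such a site. A match of letters describes a sequence and does not show binding.

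Hippocampus libraries held 16434398 to 20220617 counts in genes, and the smallest total count over the libraries of a group for any member was 437, for Fos in offspring of young mothers. The tissue label was checked against 12 markers of hippocampal neurons, all of which had over 3 counts in every library, with summed levels of 6579 to 8177 CPM (counts scaled to a fixed total, after TMM normalisation of library size) in offspring of young mothers, 7187 to 7637 in those of aged mothers and 7418 to 8970 in those of rapamycin-treated mothers. Most of that sum was Camk2a, at 4138 to 6269 CPM, and single markers could vary more, such as Fibcd1 at 83.1 to 259 CPM. Summed oligodendrocyte markers ranged from 2639 to 9891 CPM, with overlap between all groups. Of the other lists, the 8 thalamus and habenula markers stood apart in offspring of aged mothers, at 102.6 to 163 CPM against 72.4 to 95.6 CPM for young and 69.5 to 95.03 CPM for rapamycin-treated mothers. Whether each library came from its own animal is not stated in the labels, and the p-values therefore speak only of differences among these libraries, part of which may be technical. In whole tissue, more RNA per cell and more cells of a type cannot be told apart.

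The first comparison asked whether maternal age was accompanied by a difference in the offspring's hippocampus. Fos and Fosb transcripts rose in offspring of aged mothers, about 7-fold and 4-fold, while Junb stood at about 2-fold without passing the threshold and Fosl2, Jun and Jund differed less. Of the 6 members, 2 passed an adjusted p of 0.05 in edgeR's quasi-likelihood test, both higher, where 7 of 14877 genes (0.0471%) passed.

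Fos, the founding member and a standard marker of recently active neurons, had 5.99, 7.24, 4.53 and 6.61 CPM in the offspring of young mothers 1 to 4 and 27.4, 37.8 and 61.5 CPM in those of aged mothers 1 to 3. Every library of the aged group lay above every library of the young group, and the third aged library was the highest. The log2 fold change was 2.79 ± 0.27 (SE, edgeR adjusted p = 0.00576), a 6.94-fold difference with a 95% interval of 4.57 to 10.5. Fosb, whose truncated product delta-FosB is long-lived and accumulates with repeated activity, had 9.39, 9.47, 9.76 and 10.1 CPM in the young group and 32.5, 33.6 and 53.2 CPM in the aged group. The 4 young libraries were nearly alike, with a coefficient of variation of 3.43% against 7.53% from counting error alone, and the groups did not overlap. The log2 fold change of Fosb was 2.04 ± 0.19 (SE, edgeR adjusted p = 0.00576), or 4.10-fold with an interval of 3.07 to 5.49. Gene counts do not tell the full and truncated forms of Fosb apart. Without the library of young mother 1, neither gene passed, at an edgeR adjusted p of 0.0552 for both and log2 fold changes of 2.79 and 2.02, and 0 members and 0 genes were called.

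Fosl2, a Fos-related partner of the Jun proteins, had 68.2, 51.4, 56.8 and 51.4 CPM in the young group and 66.8, 81.9 and 111 CPM in the aged group. The lowest aged library lay within the young range, and the log2 fold change of 0.60 ± 0.20 (SE) missed the threshold (edgeR unadjusted p = 0.0132, adjusted p = 0.990).

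Junb, the Jun protein that is induced together with Fos and is a weaker activator than Jun, had 59.4, 66.0, 42.4 and 60.2 CPM in the young group and 117, 109 and 172 CPM in the aged group. The groups did not overlap, and Junb was the gene with the 14th smallest p of all tested, but its log2 fold change of 1.22 ± 0.21 (SE) did not pass in edgeR (unadjusted p = 0.000142, adjusted p = 0.151). DESeq2 on the same counts gave Junb 1.22 with an adjusted p of 0.000157, so the call depended on the tool. Jun, the strongest activator among the Jun proteins, had 150, 156, 136 and 96.5 CPM in the young group and 164, 169 and 183 CPM in the aged group, with no overlap and a log2 fold change of 0.35 ± 0.17 (SE, edgeR adjusted p = 0.990). Jund, the most abundant member per kilobase of GENCODE transcript, had 141, 191, 129 and 169 CPM in the young group and 141, 195 and 185 CPM in the aged group. The groups overlapped almost fully (log2 fold change 0.14 ± 0.27, SE, edgeR adjusted p = 0.990).

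At an unadjusted p under 0.05 there were 4 of 6 members (Fos, Fosb, Fosl2 and Junb) and 3.51% of all genes. Of the 6 members, 4 (Fos, Fosb, Jun and Junb) were higher in every aged-mother library than in every young-mother library, as were 2.92% of all genes tested. All 6 log2 fold changes were above 0, against 47.9% of all genes, and their median was 0.91 against -0.01 over all genes. The members were chosen with earlier results of these data known. Their counts beside those of all genes, here and in the next comparison, are therefore no independent evidence. The thalamus and habenula markers, of which 7 of 8 had over 3 counts in every library and 0 were at 0 in all, moved in the same direction as Fos in this comparison. In the offspring of rapamycin-treated mothers those markers overlapped the young range, and the log2 fold change of Fos against the young group was 3.23. The part of those markers in either difference was not tested.

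**Figure D1:**
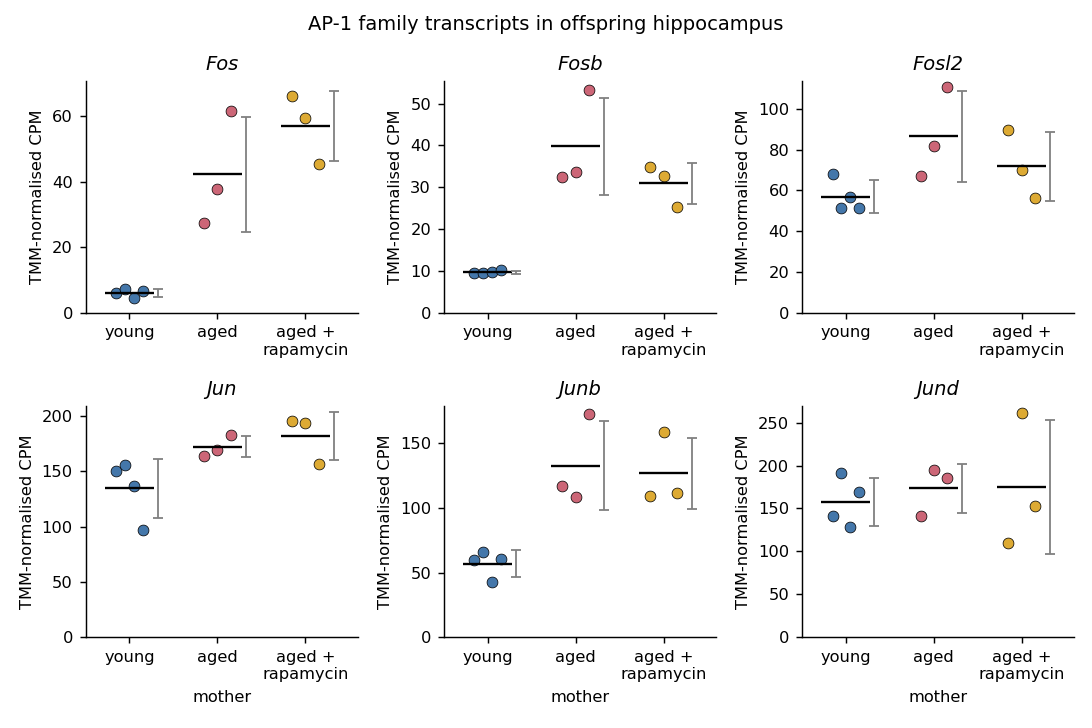
Levels of the 6 AP-1 genes in hippocampus as TMM-normalised CPM (vertical axis, linear, from 0) by mother's group (horizontal axis). Points are libraries, black lines are group means and grey bars are ± 1 SD (n = 4, 3 and 3). Fos lies at 4.53 to 7.24 CPM in the young group and at 27.4 CPM or more in all libraries of the other groups, whereas Jund overlaps throughout.

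Offspring of rapamycin-treated aged mothers were then set against offspring of young mothers, to ask whether the difference was present in that group too. These 4 young libraries are shared with the previous comparison. Fos and Fosb rose again, about 9-fold and 3-fold, so that 2 of 6 members passed, where 8 of 14877 genes (0.0538%) did. Fos had 66.1, 59.4 and 45.3 CPM in the rapamycin group, all above the 4 young libraries and overlapping with those of aged mothers. Its log2 fold change was 3.23 ± 0.28 (SE, edgeR adjusted p = 0.00154), or 9.36-fold with an interval of 6.13 to 14.3. Fosb had 34.7, 32.7 and 25.2 CPM, again above all young libraries, with a log2 fold change of 1.67 ± 0.19 (SE, edgeR adjusted p = 0.0115) or 3.19-fold, interval 2.39 to 4.26. With the replicate number as a block, Fosb no longer passed (1.71, edgeR adjusted p = 0.0756), while Fos did, which left 1 member. Fosb also missed the threshold when the library of rapamycin mother 1 (adjusted p = 0.0724), young mother 1 (0.0915) or young mother 3 (0.0549) was left out of the edgeR fit, with log2 fold changes of 1.57 to 1.66.

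Junb had 109, 158 and 112 CPM in the rapamycin group, above all young libraries, with a log2 fold change of 1.15 ± 0.21 (SE) that did not pass in edgeR (adjusted p = 0.225) and passed in DESeq2 (1.14, adjusted p = 0.000720). Jun had 195, 194 and 156 CPM, narrowly above all young libraries (log2 fold change 0.43 ± 0.17, SE, edgeR unadjusted p = 0.0255, adjusted p = 0.999). Fosl2 had 89.6, 69.8 and 56.1 CPM and overlapped the young group (0.34 ± 0.20, SE, adjusted p = 0.999). Jund, at 110, 262 and 153 CPM, overlapped with the young group as well (0.15 ± 0.27, SE, adjusted p = 0.999). Fos, Fosb, Jun and Junb lay above the young group in every library, as did 2.93% of all genes, and the same 4 had an unadjusted p under 0.05 (3.63% of all genes). All 6 log2 fold changes were above 0, against 51.3% of all genes, with a median of 0.79 against 0.01 over all genes.

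The direct comparison of rapamycin-treated with untreated aged mothers asked whether the treatment was accompanied by a shift of these transcripts. None of the 6 members passed, and neither did any other gene in edgeR (0 of 14877, 0%), although 673 genes (4.52%) had an unadjusted p under 0.05 and DESeq2 called 13 genes. No member was among the genes at an unadjusted p under 0.05. Fos differed by 0.43 ± 0.28 (log2, SE) with a 95% interval of -0.18 to 1.04, and Fosb by -0.36 ± 0.20 with an interval of -0.80 to 0.08. The intervals of Fosl2 (-0.75 to 0.22), Jun (-0.32 to 0.48), Junb (-0.57 to 0.43) and Jund (-0.62 to 0.64) also included 0. For Fos, a rise of up to 2.06-fold and a fall to 0.88-fold of the level in the aged group lay inside the interval, so these libraries do not show that the groups were alike. Adjusted p-values ran from 0.796 to 0.992, and the libraries of both groups overlapped for all 6 genes.

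**Figure D2:**
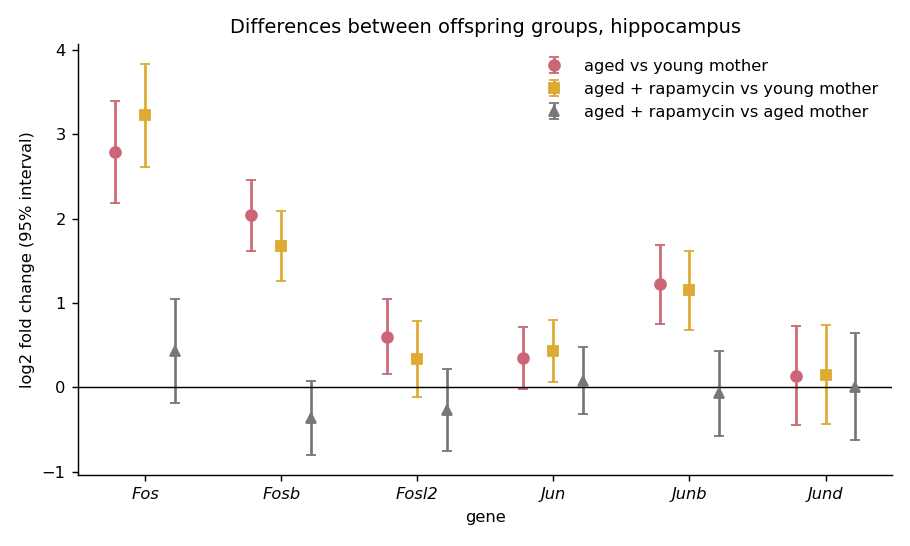
Log2 fold changes of the 6 genes in hippocampus (vertical axis) for the 3 comparisons, with 95% intervals from the edgeR fit. Fos and Fosb lie at 1.67 to 3.23 against young mothers, and the intervals of all 6 genes include 0 for rapamycin-treated against untreated aged mothers.

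To compare levels between genes, CPM were divided by the length of the longest coding transcript, which runs from 1668 bases for Jund to 6537 for Fosl2. The value of Jund depends on its gene model, since its RefSeq start lies 1210 bases upstream. Its place in the order, the family sums and the shares below depend on that model too. In offspring of young mothers the order of CPM per kilobase was Jund (94.5 ± 16.9, SD, n = 4), Jun (42.2 ± 8.36), Junb (31.5 ± 5.62), Fosl2 (8.71 ± 1.21), Fos (2.89 ± 0.55) and Fosb (2.56 ± 0.088). Jun overlapped with Junb, and Fos with Fosb, while the other neighbours in that order did not overlap. In offspring of aged mothers Junb (73.3 ± 19.2, SD, n = 3) stood above Jun (53.9 ± 3.00) without overlap, and Fos (20.0 ± 8.30) stood above Fosl2 (13.2 ± 3.39) and Fosb (10.5 ± 3.09) with overlap. In offspring of rapamycin-treated mothers Fos reached 27.0 ± 5.05 (SD, n = 3) and no longer overlapped with Fosl2 (11.0 ± 2.58), which overlapped with Fosb (8.17 ± 1.32), while Junb (69.9 ± 15.3) overlapped with Jun (57.0 ± 6.91).

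Ranked among the 14437 tested genes with a length, the mean level per kilobase of Fos stood at percentile 31.5 in offspring of young mothers, 74.9 in those of aged mothers and 81.2 in those of rapamycin-treated mothers. Junb stood at percentiles 83.7, 93.6 and 93.5 in the same order, and Jund at 95.3, 95.7 and 96.0. These ranks restate the levels and carry no test.

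The Fos genes made up a small part of the family's transcripts. Fos, Fosb and Fosl2 together took 6.45% to 8.73% of the summed CPM per kilobase in the young group, 13.7% to 18.6% in the aged group and 13.5% to 22.5% in the rapamycin group. The Jun genes thus held 77.5% or more in every library. The family sum was 157 to 214 CPM per kilobase in the young group, 232 to 324 in the aged group and 239 to 353 in the rapamycin group, so neither of the last 2 groups overlapped with the first. Most of that added amount was Junb and Fos transcript: mean Junb was 31.5 CPM per kilobase in the young and 73.3 in the aged group, and mean Fos 2.89 and 20.0.

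**Figure D3:**
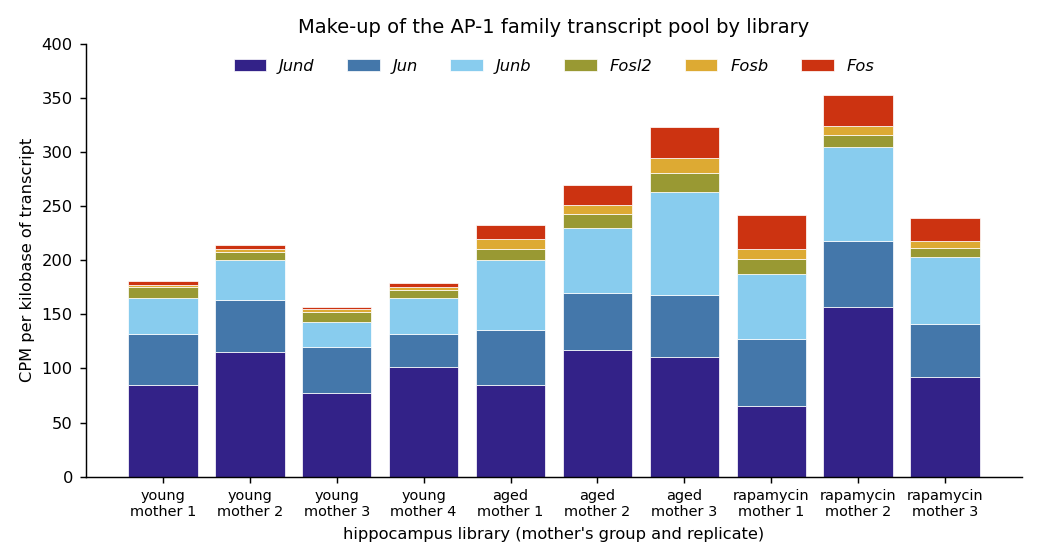
Summed level of the 6 genes in each hippocampus library, in CPM per kilobase of transcript (vertical axis, from 0), stacked by gene. The sum is 157 to 214 in the 4 young-mother libraries and 232 to 353 in the other 6. With the Jund length of 1668 bases used here, Jund is the largest part in all 10 libraries.

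Jund differed within groups more than between them. In the rapamycin group it had a coefficient of variation of 44.7% against 1.81% from counting error. Its level moved with that of 79 cytosolic ribosomal protein genes: rapamycin mother 1 had the lowest mean ribosomal level (-0.90, log2 units from the mean of the 10 libraries) and the lowest Jund, and rapamycin mother 2 had 0.63 and the highest Jund. Aged mother 1 was an exception, with a ribosomal level of 0.48 and a Jund level of 141 CPM. Fos did not order this way, with 66.1 and 59.4 CPM in the same libraries. With the ribosomal level as a covariate, the Jund difference between offspring of aged and young mothers went from 0.14 to -0.04, while in the rapamycin to young comparison Junb passed in edgeR (1.20, adjusted p = 0.0298). What links Jund and the ribosomal transcripts was not tested.

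**Figure D4:**
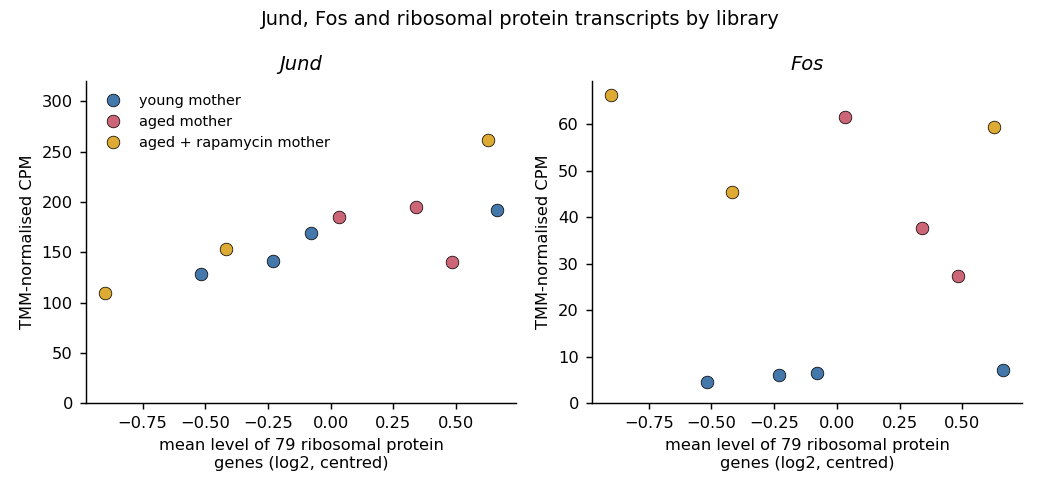
Level of Jund (left) and Fos (right) in TMM-normalised CPM (vertical axes, from 0) against the mean log2 level of 79 ribosomal protein genes (horizontal axes), 1 point per hippocampus library, coloured by mother's group. Jund is lowest, at 110 CPM, where the ribosomal level is lowest, and Fos is below 8 CPM only in the young-mother libraries at any ribosomal level.

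The other genes of the pathway were counted from lists. The dimer partners listed outside the 6 members were Fosl1, Batf, Batf2, Batf3, Jdp2, Atf2, Atf3 and Atf7, and the list is not complete. Of these, 5 of 8 passed the filter on low counts and 0 of 5 passed the test in any hippocampus comparison. At most 0.0538% of all genes passed in any of these comparisons, so 0 of 5 says little. Fosl1 (Fra-1), the remaining Fos gene, had 0 to 7 counts per hippocampus library. Atf2, which pairs with Jun, was the most abundant, at 111 to 149 CPM over all 10 libraries, and Jdp2, a repressor that pairs with Jun proteins, had 20.4 to 42.5 CPM. Atf3, a stress-induced partner, had a log2 fold change of 1.68 ± 0.39 (SE) for aged against young mothers and did not pass (edgeR adjusted p = 0.516). Values of these 4 partners are given as chosen after they were seen.

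Of 26 MAP kinases, their activating kinases and scaffolds, 0 passed in any hippocampus comparison, with median log2 fold changes of -0.06, 0.12 and 0.06 for aged to young, rapamycin to aged and rapamycin to young. The 17 factors that drive Fos and Jun transcription, such as Srf, Creb1 and Mef2 genes, gave 0 calls, as did 10 AP-1 cofactors and ubiquitin ligases. Of all genes, 0.0471%, 0% and 0.0538% passed in the same order of comparisons, so these counts of 0 say little about the lists. Transcript levels of kinases do not measure their activity. Among 11 MAP kinase phosphatases, Dusp1, an early gene whose product switches off MAP kinases, rose in offspring of rapamycin-treated against young mothers, from 10.9, 14.4, 11.0 and 12.5 CPM to 64.5, 47.5 and 48.0 CPM (log2 fold change 2.13 ± 0.23, SE, edgeR adjusted p = 0.00831). In offspring of aged mothers it had 19.2, 26.9 and 38.7 CPM, between the other groups without overlap, and did not pass against either (edgeR adjusted p = 0.195 and 0.796).

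Of 31 immediate early genes outside the family, 5 passed for aged against young mothers, all higher, with a list median of 0.79, and 6 passed for rapamycin-treated against young mothers, all higher, with a median of 0.62, against -0.01 and 0.01 over all genes. The list holds genes already known to move in these data and is no independent evidence. In the first comparison the 5 were Egr2, Egr4, Arc, Nr4a1 and Sik1, which with Fos and Fosb make up all 7 genes called there. In the second they were Btg2, Cyr61, Dusp1, Egr2, Ier2 and Sik1, which with Fos and Fosb make up all 8 genes called. Apart from Egr2, Btg2, Cyr61 and Dusp1, these genes were named after their values were seen. Egr2, a zinc-finger transcription factor, had log2 fold changes of 3.28 ± 0.43 and 3.45 ± 0.43 (SE, edgeR adjusted p = 0.0279 and 0.0179). Between rapamycin-treated and untreated aged mothers, 0 of 31 passed. The list median was -0.17 against 0.02 over all genes, so at least as many of all genes lay above 0 as below it. The exact share is not given here. In the list, 11 of 31 log2 fold changes were above 0. Among those 11, the antiproliferative gene Btg2 stood at 1.18 ± 0.18 (log2, SE, edgeR adjusted p = 0.531) and the matricellular gene Cyr61 at 0.97 ± 0.28 (adjusted p = 0.796).

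Neuronal genes with described AP-1 sites formed a further list of 20, of which 19 were tested. In each hippocampus comparison 0 of 19 passed, where 0.0471%, 0% and 0.0538% of all genes did, so a count of 0 says little about the list. Their difference from the early genes was not tested. The medians were -0.02 for aged against young, -0.10 for rapamycin-treated against aged and -0.17 for rapamycin-treated against young mothers. The medians over all genes were -0.01, 0.02 and 0.01.

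Tested genes outside the family were ranked by their likeness to each member. The measure was Pearson's r of log2 CPM over the 10 hippocampus libraries, which share the group differences. The other members were left out of this ranking, and their r is given further below. For Fos the nearest genes outside the family were Dusp1 (0.949), the synaptic gene Arc (0.946) and Flcn (0.943). For Fosb they were the orphan receptor Nr4a1 (0.975), Pygb (0.964) and Arc (0.957), and for Junb Arc (0.969), Nr4a1 (0.960) and Crebl2 (0.944). Fosl2 was nearest to Tle3, Ppp1r3d and Sh2d3c (0.924 to 0.935), Jun to Prrx1, Rbl2 and 4833418N02Rik (0.929 to 0.960), and Jund to Dnpep, B3gat3 and Adap1 (0.965 to 0.972). After subtraction of the group means, the r with Fos was 0.905 for Dusp1, 0.594 for Arc and 0.655 for Flcn. The likeness of Arc to Fos thus rested more on the groups than that of Dusp1. Within the family, r over the 10 libraries was 0.955 for Fos with Fosb, 0.943 for Fos with Junb and 0.937 for Fosb with Junb, and 0.820, 0.732 and 0.574 after subtraction of the group means. Jund gave 0.210 with Fos and 0.129 with Jun over the 10 libraries. These values describe 10 libraries and carry no test.

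In oocytes all 6 genes had low counts. Oocyte libraries held 3912163 to 8334873 counts in genes. The 9 oocyte markers summed to 15801 to 21771 CPM in 6 libraries and to 2657 CPM in the library labelled rapamycin 1, which stands apart. The filter on low counts passed 3 members, Fos, Fosb and Junb, while Fosl2, Jun and Jund had 0 to 14 counts per library and were not tested. None of the 3 passed in any comparison, where 27 of 10083 genes (0.268%) passed for aged against young oocytes, 0 (0%) for rapamycin-treated against aged and 43 (0.426%) for rapamycin-treated against young. For rapamycin-treated against aged oocytes, 603 genes (5.98%) had an unadjusted p under 0.05, Junb among them, and DESeq2 called 11. For rapamycin-treated against young oocytes Junb was again the 1 member among the 8.91% of genes at an unadjusted p under 0.05. Junb passed the filter through its counts in the rapamycin libraries, since it had 0 to 6 counts per library in young and aged oocytes. Its p-values are therefore no independent evidence of a higher level in the rapamycin group.

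Fosb was the one member with over 3 counts in every oocyte library, with 23 and 24 counts in young, 12 and 11 in aged and 27, 34 and 28 in rapamycin oocytes. This came to 5.01 and 2.79 CPM, 3.23 and 2.47 CPM, and 7.26, 5.06 and 4.22 CPM. The young and aged ranges overlapped, and all 3 rapamycin libraries lay above both aged ones, as did 11.7% of all genes (log2 fold change 0.94 ± 0.60, SE, edgeR adjusted p = 0.733). Fos had 5 and 14 counts in young, 11 and 2 in aged and 1, 14 and 17 in rapamycin oocytes, with overlap between all groups and adjusted p-values of 0.943 to 0.997.

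Junb had 0 and 6 counts in young, 0 and 0 in aged and 11, 25 and 31 counts in rapamycin oocytes, or 2.96, 3.72 and 4.67 CPM in the last group. It was higher in all 3 rapamycin libraries than in the other 4. In all 3 rapamycin libraries, 15.5% of all genes lay above both young libraries and 11.7% above both aged ones. The share of genes above all 4 was not counted. With 3 counts over the aged group as the limit that a count of 0 allows, the pooled Junb level in rapamycin oocytes was 10.7-fold above that limit. This value leaves out the spread between libraries. Junb did not pass against aged oocytes in edgeR (unadjusted p = 0.00518, adjusted p = 0.730). Against young oocytes the log2 fold change was 3.17 ± 1.10 (SE, edgeR adjusted p = 0.486). It rested on the 6 counts of young oocyte library 2: it was 2.42 without young library 1, and without library 2 the young group is at 0 and the fitted 7.26 is no measure of a fold. Summed markers of cumulus and granulosa cells, which surround the oocyte and were removed before lysis, stood at 144, 39.9 and 49.6 CPM in rapamycin 1 to 3, against 49.9 and 50.1 CPM in aged and 89.6 and 82.5 CPM in young oocytes. The part of such cells in the Junb counts was not tested. Jun was listed with 0 counts in both aged libraries and with 0, 5 and 9 counts in rapamycin oocytes. Its pooled level in rapamycin oocytes was 2.23-fold above the same limit, which again leaves out the spread between libraries, and Jun was not tested. Fosl2 had 0 and 6 counts in young, 0 and 2 in aged and 14, 3 and 8 in rapamycin oocytes, and Jund had 6 counts or fewer in every library.

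**Figure D5:**
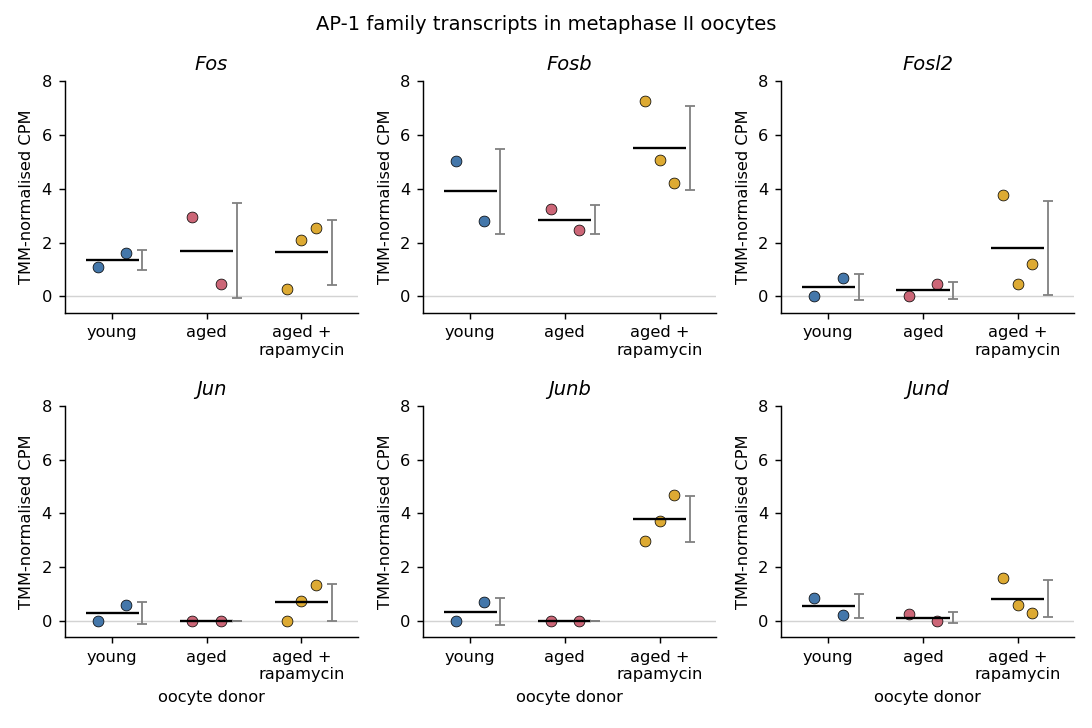
Levels of the 6 AP-1 genes in oocytes as TMM-normalised CPM (vertical axis, linear) by group (horizontal axis), with points for libraries, black lines for means and grey bars for ± 1 SD (n = 2, 2 and 3). All values lie below 8 CPM, and Junb is at 2.96 to 4.67 CPM in the rapamycin group and below 1 CPM in the other 4 libraries.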

How the data were processed

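Gene counts per library were deposited by the authors as raw counts, with no normalization. STAR, HTSeq and mm10 are named per the submitters' processing notes, while the sources used here give no version, annotation or strand setting. The 5 summary rows that name no gene were left out of totals and tests, and the row of reads outside genes held 6.09% to 16.0% of each library's total over all rows. Oocyte libraries were made by template switching and tagmentation and hippocampus libraries from poly-A RNA, per the labels' protocols, and the tissues were fitted apart. Of the 9 oocyte samples the series describes, 7 were analysed here.

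Genes were kept with filterByExpr, scaled by TMM and compared with edgeR's quasi-likelihood F-test over all 3 groups of a tissue, with Benjamini-Hochberg adjustment over 14877 (hippocampus) or 10083 (oocyte) genes and a threshold of 0.05. The code was tested on simulated data. The biological coefficient of variation was 23.5% and 49.5%. A floor of 3 counts and counting errors cover counting error only, since reads are not independent molecules. Log2 CPM for likeness used a prior count of 1. No replicate pair agreed within sampling noise (chi-square per degree of freedom 12.3 or more).

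Same-numbered replicates of the young and rapamycin-treated mothers had positive correlations of their deviations (0.168, 0.619 and 0.291), so the blocked value is given there. Different-numbered pairs of these groups ran from -0.556 to 0.498, so a pairing by number is not established. The block was chosen from the data, not the labels.

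The members and gene lists were chosen with earlier results of these data known. Genes outside the family are named where they pass in a list, up to 4 per list by smallest p. They are also named where they are among the 3 genes outside the family most like a member. Further genes of a list are named only as its contents, or with a statement that they were chosen after their values were seen. Alternatives were DESeq2, relative log expression scaling, no filter, a 10 CPM filter, robust dispersions, fits of the 2 compared groups, a ribosomal covariate, a replicate block and leaving out each library. The software was edgeR 4.0.16 with limma 3.58.1 and DESeq2 1.42.0 under R 4.3.3, and matplotlib 3.10.9 with pandas 2.3.3 under Python 3.11.15.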

Additional observations from a re-analysis of the deposited data

How the results depend on the processing

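Under other settings, 409 values of single members kept their direction and side of the threshold, 9 changed side and 17 changed sign. Of the counts of calls, 140 stayed within 1.5 times and 52 did not. Members called went from 2 to a range of 0 to 2 (aged against young mothers) and 1 to 2 (rapamycin-treated against young mothers) when 1 library was left out, and to 1 with the replicate block in the latter. Genes called in hippocampus, at 7 for aged against young mothers, came to 52 with DESeq2, 2 with only the 2 groups compared, 11 with the ribosomal covariate and 0 (without young mother 1) to 15 (without young mother 2) without 1 library. Rapamycin-treated against aged mothers, at 0, gave 13 with DESeq2, 2 with 2 groups and 0 to 1 without 1 library. Rapamycin-treated against young mothers, at 8, gave 36, 5, 4 with the replicate block, 16 with the ribosomal covariate and 2 to 10. In oocytes, aged against young (27) gave 288 with DESeq2, 167 with no filter, 1177 with 2 groups, 1 with the replicate block and 0 to 1168 without 1 library, the highest without rapamycin 1. Rapamycin-treated against aged oocytes (0) gave 11 with DESeq2, 11 with no filter and 0 to 6, and rapamycin-treated against young oocytes (43) gave 243, 179, 14, 0 with the replicate block and 0 to 304. The cause was not tested.

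Changes of sign were seen only for differences that had not passed. Jund turned to -0.0356 with the ribosomal covariate for aged against young mothers. For rapamycin-treated against aged mothers, Jund turned to -0.00172 with no filter and -0.0611 with the replicate block and ranged from -0.41 to 0.24 without 1 library, and Junb turned to 0.0521 with the ribosomal covariate and ranged from -0.28 to 0.16. Against young mothers, Jund ranged from -0.27, without rapamycin mother 2, to 0.38. In oocytes without 1 library, Fos ranged from -1.56 to 1.10 and Fosb from -0.78 to 0.0255 for aged against young, and Fos from -0.82 to 1.85 for rapamycin-treated against aged. With the replicate block Fos turned to -0.52 (rapamycin-treated against aged) and -0.17 (rapamycin-treated against young). Junb gave no value for aged against young oocytes without young oocyte 2, since all its counts were then 0. For the other pairs of groups, same-numbered correlations were -0.169 to 0.197 in hippocampus and -0.087 to 0.001 in oocytes. The block changed no other member's call.

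The list of genes outside the family most like each member changed when ranked on deviations from group means. Nxph1 (0.952), Arl4c and Cckbr then led for Fos, and Tango2 (0.990) for Jund. At 3912163 to 8334873 counts per oocyte library, Fosl2, Jun and Jund had too few counts to be tested.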

Other observations

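The balance of Fos and Fosb, which is not among the comparisons above and was chosen after the values were seen, separated all 3 groups of offspring. The ratio of their CPM per kilobase was 0.83 to 1.37 in offspring of young mothers (n = 4), 1.51 to 2.07 in those of aged mothers (n = 3) and 3.22 to 3.42 in those of rapamycin-treated mothers (n = 3). Neither gene alone passed the edgeR test between the last 2 groups. No test was run on the ratio.

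Of the ratios formed, only that of Fos to Fosb separated all 3 groups. The ratio of Fos to Jun was 0.050 to 0.104 in offspring of young mothers. It was 0.25 to 0.51 in those of aged mothers and 0.44 to 0.51 in those of rapamycin-treated mothers, with overlap. The ratio of Fos to Jund, a fast and a steady member, was 0.028 to 0.034 in all 4 young-mother libraries and 0.153 to 0.477 in the other 6. The ratio of Junb to Jun was 0.55 to 1.10 in offspring of young mothers, 1.13 to 1.66 in those of aged mothers and 0.99 to 1.44 in those of rapamycin-treated mothers, so the last group overlapped with both others.

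Of the family's partners, again chosen after their values were seen, Atf2 stood at 160 to 364 CPM and Atf7 at 4.36 to 15.1 CPM over the 7 oocyte libraries, Batf3 at 0.60 to 6.18 CPM, and Jdp2 had 0 counts in all 7. The library types differ between the tissues, so these levels are not compared across them.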
